A study of Mus musculus with 4 samples.

Results

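The 1000 genomic regions described here carried histone H3 acetylated at lysine 27 (H3K27ac) in both libraries of isolated mouse liver sinusoidal endothelial cells (LSECs) and lay far from any protein-coding gene. The 2 deposited peak lists, of replicates 2 and 3, were pooled, overlapping peaks were merged, and a merged region was called shared when it held a peak of each library. A shared region was a member when its midpoint fell outside all protein-coding gene bodies and more than 100 kb from every protein-coding gene end. Of 64629 merged regions, 24199 were shared, and 1000 of these (4.13%) were members. A reciprocal overlap of 50% left 598 members. The rule used position and the presence of a called peak in each library, which leaves out weaker regions that only 1 library detected. It did not use the spacing of the members or the state of the genes around them.

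LSECs line the sinusoids, the permeable capillaries of the liver. In the study's methods, cells were isolated from mouse liver with beads against CD146, an endothelial surface protein, and cross-linked before H3K27ac was immunoprecipitated. The study profiled this mark to look for candidate regulatory elements. The strain, genotype, age, and treatment of the mice behind these libraries are not given in the labels, both libraries belong to 1 group, and the input libraries were not analysed here.

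H3K27ac is deposited by the acetyltransferases p300 and CBP on nucleosomes beside active promoters and enhancers, and a peak far from a promoter is commonly read as a candidate enhancer. Gene deserts are long stretches without protein-coding genes. Many of them flank genes for developmental regulators, and known deserts hold enhancers that act across long distances, such as those around *Myc* and *Sox9*. Some deserts also hold genes for long noncoding RNAs (lncRNAs) and microRNAs (miRNAs).

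The cell type was checked at the ends of marker genes. Of 17 LSEC marker genes, 13 had a shared region within 1 kb of a gene end, among them *Stab1*, *Lyve1*, *Kdr*, and *Cdh5*. Of all 21887 protein-coding genes, 9644 (44.1%) had such a region. No such region was found at 8 hepatocyte, 8 hepatic stellate, 8 Kupffer, or 5 cholangiocyte genes, and 1 of 5 lymphocyte genes, *Cd79a*, had one. *Stab2*, *Clec4g*, *Mrc1*, and *Rspo3* were the LSEC markers without one. The list of replicate 3 held 64498 peaks and that of replicate 2 held 26975, so the shorter list limited what could be shared. The number of reads is unknown for both.

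The genome sequence under the peaks was not used here, but the RefSeq table of promoters for GRCm38.p6 (250 bases before to 50 bases after a start) held windows of 30 lncRNA genes that 31 members overlapped. These members were therefore at the starts of noncoding genes as well as in deserts between coding ones. The windows of 4 of them are shown, those of *Morrbid*, *Lncpint*, and *Mir100hg* because their deserts return below and that of *Dubr* for the strength of its member. *Morrbid* regulates the proapoptotic neighbour *Bcl2l11*, *Lncpint* is a p53-induced lncRNA, *Dubr* is a lncRNA of muscle and neural differentiation, and *Mir100hg* is a host transcript of miRNAs. Capitals mark matches, on either strand, to 4 motifs. The letters searched were CNGGAAG for the ETS family of transcription factors and TGANTCA for AP-1. For the GATA family they were AGATAA, and for the SOX family they were ACAATG. The windows lie at chr2:128429302-128429601 (minus strand), chr6:31218425-31218724 (minus), chr16:50732724-50733023 (minus), and chr9:41474643-41474942 (plus).
Morrbid: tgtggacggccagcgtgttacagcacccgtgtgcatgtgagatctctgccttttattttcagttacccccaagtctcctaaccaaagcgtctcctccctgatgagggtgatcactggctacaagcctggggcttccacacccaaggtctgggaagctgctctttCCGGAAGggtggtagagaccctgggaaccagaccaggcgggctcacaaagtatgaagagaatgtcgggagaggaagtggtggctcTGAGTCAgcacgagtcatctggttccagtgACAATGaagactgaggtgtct
Lncpint: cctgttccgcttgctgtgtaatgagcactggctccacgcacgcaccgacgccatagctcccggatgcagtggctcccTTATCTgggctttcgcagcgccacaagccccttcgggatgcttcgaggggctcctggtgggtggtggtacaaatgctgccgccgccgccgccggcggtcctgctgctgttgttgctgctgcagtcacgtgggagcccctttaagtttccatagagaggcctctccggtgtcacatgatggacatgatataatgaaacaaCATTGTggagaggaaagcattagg
Dubr: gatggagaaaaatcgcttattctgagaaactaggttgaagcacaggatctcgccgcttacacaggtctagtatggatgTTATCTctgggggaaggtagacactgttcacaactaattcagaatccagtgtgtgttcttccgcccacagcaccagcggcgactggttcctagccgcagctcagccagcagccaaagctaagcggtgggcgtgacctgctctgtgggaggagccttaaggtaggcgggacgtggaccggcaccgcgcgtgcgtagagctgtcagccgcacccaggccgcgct
Mir100hg: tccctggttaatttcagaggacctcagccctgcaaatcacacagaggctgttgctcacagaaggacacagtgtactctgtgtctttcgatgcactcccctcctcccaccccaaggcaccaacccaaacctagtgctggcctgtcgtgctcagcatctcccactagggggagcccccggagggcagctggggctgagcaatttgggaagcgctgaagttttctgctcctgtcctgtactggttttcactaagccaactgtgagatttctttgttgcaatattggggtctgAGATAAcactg

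The *Morrbid* window held matches for ETS, AP-1, and SOX factors, starting at bases 165, 250, and 280, and the AP-1 match spanned the annotated start. The *Lncpint* window held a GATA match at base 78 and a SOX match at base 277. *Dubr* and *Mir100hg* held a GATA match each, at bases 79 and 290. Among 1 window for each of the 30 lncRNA genes, the ETS letters were found in 14 (46.7%), against 31.9% of all 32851 promoter windows. The AP-1 letters were found in 5 (16.7%, against 7.81%), the GATA letters in 6 (20%, against 11.2%), and the SOX letters in 6 (20%, against 12.6%). The MAF letters TGCTGA was found in 10 (33.3%, against 19.5%), the E-box CAGCTG in 6 (20%, against 16.3%), the TEAD letters GGAATG in 6 (20%, against 14.7%), and the forkhead letters TGTTTAC in 2 (6.67%, against 3.65%). Matches to different motifs were counted separately where they shared letters. The median GC content was 50.3% in the 30 windows and 52.7% in all windows. These shares describe 30 windows and were not tested.

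In replicate 2 the member at *Lncpint*, chr6:31215763-31219255, had an enrichment of 21.0 over background, and in replicate 3 it had 52.3. Fold enrichment is the ratio that the authors' peak caller gave for the highest peak of each library in the region. The member at *Dubr*, chr16:50732115-50733165, had 20.7 and 52.2, and that at *Morrbid*, chr2:128427453-128429985, had 19.6 and 43.0. The member at the *Mir100hg* start, chr9:41474576-41475097, had 4.65 and 10.9, whereas a member farther inside the same gene, chr9:41479891-41480596, had 26.4 and 60.2. Within the list of replicate 2, the members at *Lncpint*, *Dubr*, and *Morrbid* stood at percentiles 84.9, 84.3, and 82, and the member at *Mir100hg* stood at 1.39. In the list of replicate 3 the *Mir100hg* member stood at percentile 57.7, so the libraries ranked it differently.

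The deserts that hold members also contain 28 miRNA genes of the RefSeq table, in 22 deserts, and 8 of these genes lay within 10 kb of a member. The share of desert sequence that near a member was not computed, so these counts do not show that miRNA genes lie close to members. The seed (bases 2 to 8, in capitals) is the part that pairs with target mRNAs. The mature miRNAs shown are those whose seed recurred among the mature miRNAs listed for member deserts, with let-7c beside them. For the hairpin of let-7a-2 only let-7a-2-3p was listed, so a match there to the let-7c seed could not be looked for.
miR-99a-5p: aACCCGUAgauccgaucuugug
miR-100-5p: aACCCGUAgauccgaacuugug
miR-125b-5p: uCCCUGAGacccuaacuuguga
let-7c-5p: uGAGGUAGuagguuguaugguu
miR-29a-3p: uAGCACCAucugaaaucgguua
miR-29b-3p: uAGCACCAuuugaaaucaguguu
miR-221-3p: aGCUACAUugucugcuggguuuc
miR-222-3p: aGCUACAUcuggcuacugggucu

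miR-99a and miR-100 share the seed ACCCGUA and come from paralogous clusters on different chromosomes. The cluster of miR-99a, let-7c-1, and miR-125b-2 lies in the desert between *Usp25* and *Cxadr* on chromosome 16, with members 3.52, 2.79, and 1.61 kb away. The cluster of miR-100, let-7a-2, and miR-125b-1 lies between *Ubash3b* and *Gm40514* on chromosome 9, where the nearest members to miR-100-5p and miR-125b-5p were 14.2 and 13.5 kb away. Both deserts held several members, 14 on chromosome 16 and 8 on chromosome 9. miR-29a and miR-29b-1, which target collagen mRNAs, lie 12.9 and 12.6 kb from a member between *Klf14* and *Mkln1*. miR-221 and miR-222, which target *Kit* in endothelial cells, lie on chromosome X between *Dipk2b* and *Tex13c3*, with the nearest of 4 members 21.9 and 21.3 kb away.

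Members were narrow and of moderate strength. Their median width was 548.5 bp, against 916 bp for the 10184 shared regions within 2.5 kb of a gene end, 583 bp for 8285 in gene bodies, and 584 bp for the 4730 other intergenic regions. The median fold enrichment of members was 8.81 in replicate 2 and 19.5 in replicate 3. At gene ends it was 13.8 and 39.7, in gene bodies 8.81 and 21.2, and in the other intergenic regions 9.15 and 21.7. Members thus resembled the other distal regions in strength in replicate 2, were slightly below them in replicate 3, and were below gene ends in both. With 1 library a replicate and no second group, no test was made of these differences.

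Enrichment was higher in replicate 3 in 937 members and lower in 63, with a median ratio of 2.06 between the libraries. The order of members was similar in both, with a Spearman rho of 0.776 over the 1000 regions, which is a description because the regions share their libraries. A strong member was rarer than a strong gene end. The 90th percentile of its list was passed by 55 members (5.5%) in replicate 2 and 123 (12.3%) in replicate 3, whereas 2008 (19.7%) and 4421 (43.4%) of the gene-end regions passed it.

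**Figure D1:**
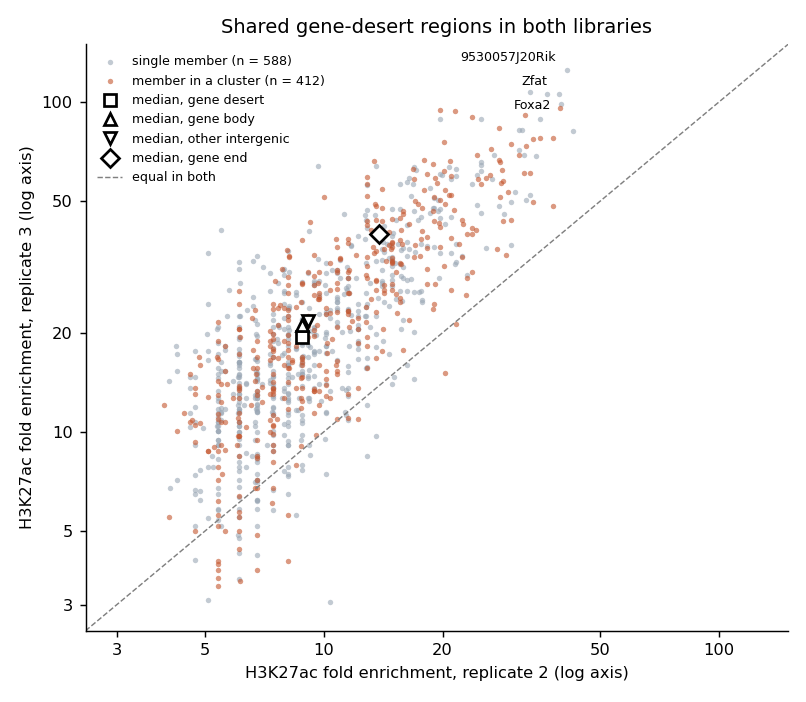
Fold enrichment of each of the 1000 members in replicate 2 (x axis, log scale) and replicate 3 (y axis, log scale). Orange points are the 412 members in a cluster and grey points the 588 others, open symbols are medians of the 4 classes of shared region, the dashed line is equality, and 3 of the strongest members carry the name of their nearest gene. Most points (937) sit above the line, and the median of members lies below that of gene ends in both libraries.

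Most desert regions of replicate 3 had no peak of replicate 2. Gene deserts held 2753 merged regions, of which 1000 had peaks of both libraries, 30 of replicate 2 only, and 1723 of replicate 3 only. The share of replicate 3 regions with a replicate 2 peak was 36.7% (Wilson 95% interval, counting error only, 34.9 to 38.6) in deserts and 37.6% (37.2 to 38.0) elsewhere. It was 52.0% at gene ends, 30.7% in gene bodies, and 31.3% in the other intergenic sequence. The regions of replicate 3 alone were weak, with a median enrichment of 6.19, against 19.5 for members.

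The member with the highest mean rank over both lists was chr8:20122087-20122651, with 41.3 in replicate 2 and 125 in replicate 3. It lay between *9530057J20Rik* and *Gm15319* and overlapped no annotated gene. It spanned only 565 bp, whereas the other members named here and in the next paragraph spanned 1208 to 2112 bp. Whether its reads came from this locus alone was not tested, so its rank is a description of the peak lists. Next in rank came chr15:68362281-68364075, with 39.3 and 106, 104 kb from *Zfat*, a zinc-finger gene with roles in blood cells. The third was chr2:148184417-148185734, with 39.99 and 98.7, 138 kb from *Foxa2*, the forkhead factor of endoderm. *Zfat* had a shared region at a gene end and *Foxa2* had none.

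The other 7 of the 10 strongest members lay 110 to 339 kb from their nearest genes. A member 175 kb from *Cdkn2b*, a cell cycle inhibitor, had 39.7 and 95.7, and lay in the body of the lncRNA *Gm12610*. A member 163 kb from *Akr1e1* and 1090 kb from *Klf6* had 36.8 and 106. The member 140 kb from *Spry2*, chr14:105751766-105752973, had 42.7 in replicate 2, the highest value of any member there, and 81.7 in replicate 3. The member 110 kb from *Ogfrl1* had 33.2 and 107, that 119 kb from *Klf4*, the shear-responsive Krüppel-like factor, had 35.2 and 88.6, that 166 kb from *Gli2*, a Hedgehog effector, had 38.0 and 78.0, and that 339 kb from *Myc* had 35.4 and 78.1. These 10 members stood at percentile 96.3 or higher in the list of replicate 2 and at 96.9 or higher in that of replicate 3.

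Distance to the nearest protein-coding gene ranged from 100.2 to 2138 kb, with a median of 181 kb. It was 100 to 200 kb for 570 members, 200 to 500 kb for 355, 500 to 1000 kb for 59, and over 1000 kb for 16. The farthest member, chr1:102628137-102628382, lay 2138 kb from *Cntnap5b* and 2140.1 kb from *Cdh20*, and had 9.22 and 8.5. Members became sparser with distance. Desert sequence held 2.54 members per Mb at 100 to 150 kb from the nearest gene, 2.07 at 150 to 200 kb, 1.48 at 200 to 300 kb, 0.857 at 300 to 500 kb, 0.368 at 500 to 1000 kb, and 0.216 beyond 1000 kb. Regions of replicate 3 alone thinned out likewise, from 4.64 to 0.149 per Mb. Median enrichment in replicate 3 was 21.2 for members within 200 kb of a gene, 18.2 at 200 to 500 kb, 16.9 at 500 to 1000 kb, and 11.9 for the 16 members beyond. In replicate 2 it was 9.17, 8.81, 7.46, and 8.70, without a steady decline.

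Regions on both sides of the distance limit had similar values. The 3 nearest to it, at 100.2 to 100.4 kb, were flanked by *Nr3c1* and *Pabpc2*, by *Chst15* and *Oat*, and by *Gap43* and *Zbtb20*, with enrichments of 5.89 to 16.3 in replicate 2 and 14.3 to 28.0 in replicate 3. The 3 shared regions just outside, at 99.5 to 99.9 kb, were flanked by *Lurap1l* and *Mpdz*, *Npvf* and *Gm38821*, and *Mc2r* and *Tcf4*, with 9.49 to 21.7 and 16.7 to 45.6. The 91 members at 100 to 110 kb had medians of 9.76 and 22.5, and the 112 regions at 90 to 100 kb had 9.32 and 20.2.

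Members gathered in few deserts. Protein-coding genes left 1689 gaps of over 200 kb, here called deserts, and 342 of them (20.2%) held a member. With the peaks of replicate 3 alone the share was 32.9%. Of these 342, 158 held 1 member, 123 held 2 to 4, and 61 held 5 or more, and those 61 held 504 members (50.4%). The 18 deserts with 10 or more held 241 (24.1%). A further 213 deserts held only regions of replicate 3, and 1134 held no region of either kind. The other 2 members lay beyond the last gene of a chromosome. The 1689 deserts include 152 of chromosome Y, none with a member, and the shares given here keep them.

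The share of deserts with a member was higher in longer deserts, which were more sparsely filled. It went from 10.7% of the 525 deserts of 200 to 300 kb to 33.7% of the 83 deserts over 2000 kb. Over the same bins the density fell from 3.92 to 0.416 members per Mb of sequence more than 100 kb from a gene. Length was thus a poor guide to number, with a Spearman rho of 0.195 between them over the 1689 deserts.

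**Figure D2:**
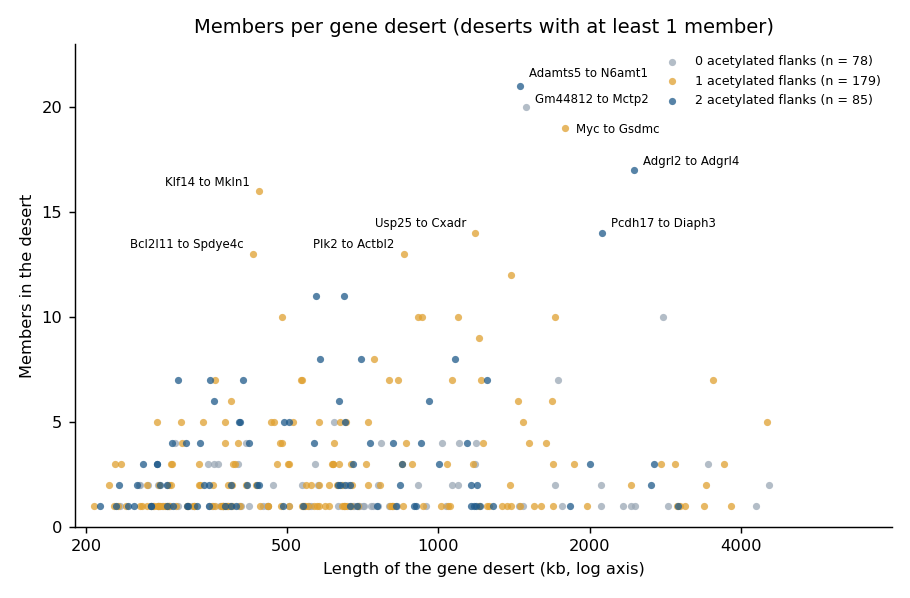
Number of members (y axis) against desert length (x axis, kb, log scale) for the 342 deserts with at least 1 member. Colours give how many of the 2 flanking genes had a shared region within 1 kb of a gene end, and deserts with 13 or more members are named. The fullest deserts, with 13 to 21 members, ranged from 429 to 2449 kb.

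The desert between *Adamts5*, a secreted protease of the matrix, and *N6amt1*, a methyltransferase, held the most members, 21 over 1014 kb. Their enrichment ran from 4.24 to 32.5 in replicate 2 and from 5.54 to 73.6 in replicate 3. Next came *Gm44812* to *Mctp2* with 20 members, between flanking genes that had no shared region at either end. Its members reached 27.9 and 51.4. The third, *Myc* to *Gsdmc*, held 19 members. The 17 nearer to *Myc* lay 114 to 402 kb from it, and the other two lay beyond a stretch of 674 kb without a member.

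The desert between the adhesion receptors *Adgrl2* and *Adgrl4* held 17 members in groups at its ends. 12 members lay 181 to 364 kb from *Adgrl2*, and the other 5 lay 114 to 291 kb from *Adgrl4*, an endothelial receptor also called ELTD1, with 1794 kb free of members between them. Both genes had shared regions at a gene end, with enrichments of 10.2 and 27.1 at *Adgrl2* and 12.3 and 38.1 at *Adgrl4*. In the desert between *Pcdh17* and *Diaph3* all 14 members were nearer to *Diaph3*, and in that between *Usp25* and *Cxadr* all 14 were nearer to *Usp25*. Short deserts could also be well filled, with 16 members in the 440 kb between *Klf14* and *Mkln1* and 13 in the 429 kb between *Bcl2l11* and *Spdye4c*.

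**Figure D3:**
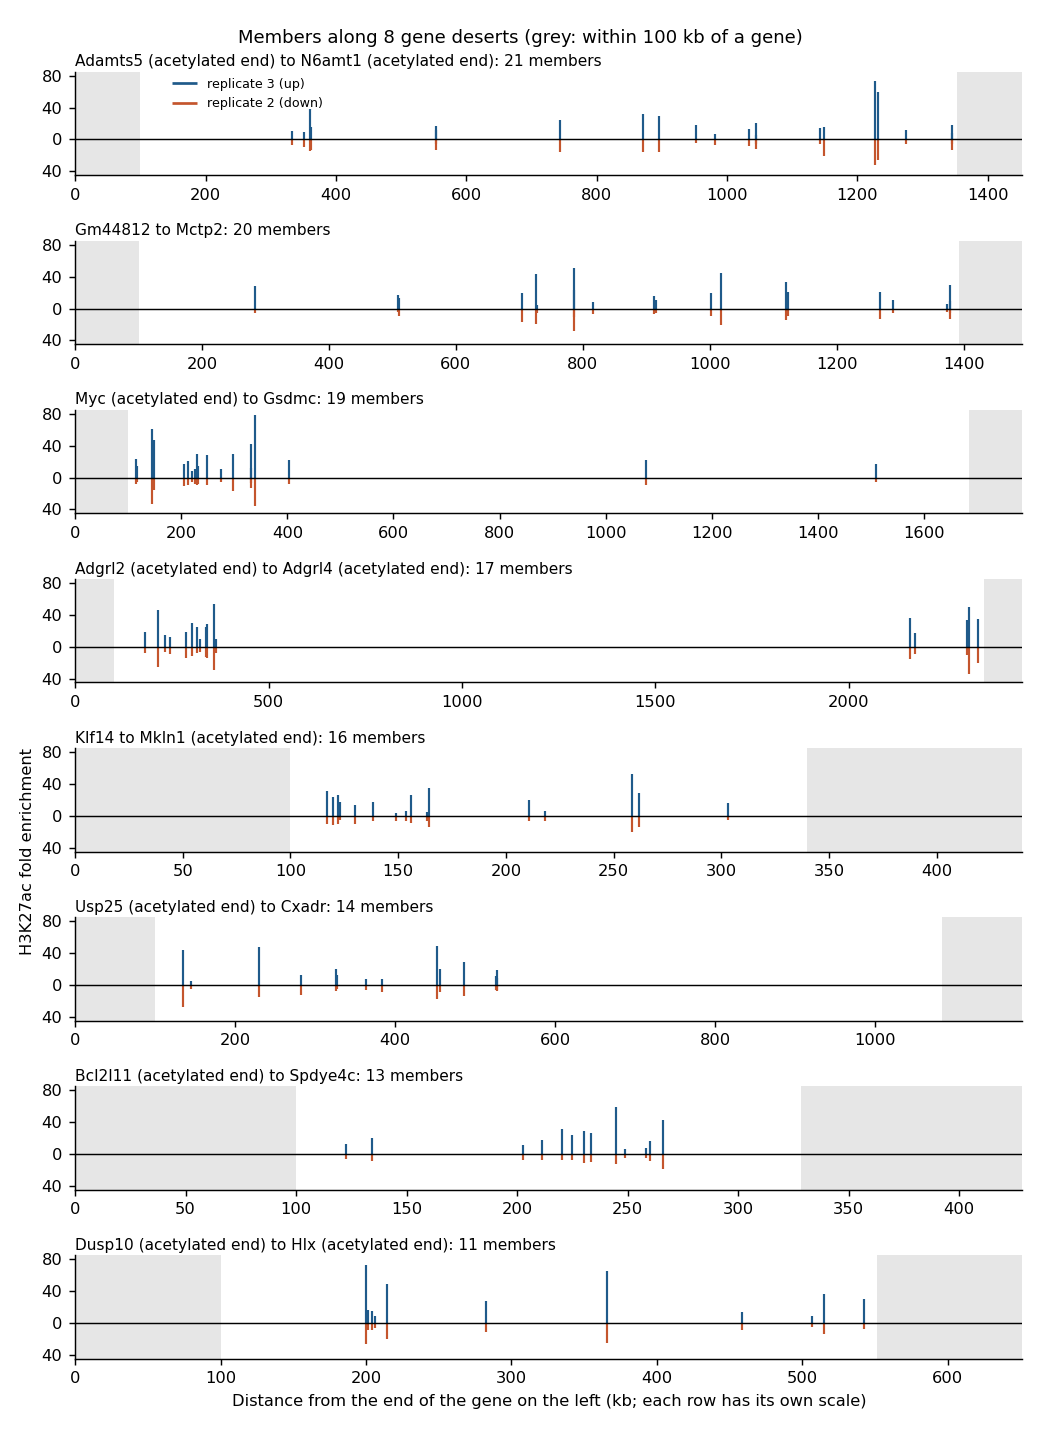
Members along 8 deserts, drawn at their distance from the gene on the left (x axis, kb, with its own scale in each row). Blue lines upward give fold enrichment in replicate 3 and orange lines downward that in replicate 2, grey bands are within 100 kb of a gene, and titles say which flanking genes had a shared region at a gene end. Members crowd near *Myc*, at the ends of the *Adgrl2* to *Adgrl4* desert, and in the *Usp25* end of its desert. The libraries differ in their tallest member in the deserts beside *Adgrl4*, *Usp25*, and *Bcl2l11*, and share it in the other rows.

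The chromosomes differed in how many members they held. In deserts, chromosome 10 had 98, chromosome 13 had 93, and chromosome 16 had 88, which was 2.89, 2.78, and 3.16 per Mb of desert sequence more than 100 kb from a gene. Chromosome 19 had 1 member in 10.4 Mb, chromosome X had 19 in 58.1 Mb, and chromosome Y had none in 47.3 Mb.

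Of the very long deserts, few were well filled. The 5 longest that held a member lay between *Pcdh20* and *Pcdh9* (2 members), *Celf4* and *Pik3c3* (5), *Cntnap5b* and *Cdh20* (1), *Dsel* and *Cntnap5a* (1), and *Zeb2* and *Acvr2a* (3), and ran from 3697 to 4542 kb. All 3 members of the last lay nearer *Acvr2a*, an activin receptor, and 3262 to 3357 kb from *Zeb2*. The longest without a member, *Olfm4* to *Pcdh17* at 4420.4 kb, held 1 region of replicate 3 alone.

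Members also clustered at short range. Joined at gaps of up to 10 kb, 412 members (41.2%) fell into 173 clusters, and 588 stood alone. There were 130 clusters of 2, 31 of 3, 5 of 4, 3 of 5, and 4 of 6. The median distance from a member to its nearest neighbour was 17.9 kb, and 119 had one within 1 kb. Clustered members were somewhat wider and stronger than lone ones, with median widths of 599 and 521 bp and median enrichments of 9.76 and 8.63 in replicate 2 and 22.3 and 17.9 in replicate 3. Clusters had a median span of 5.14 kb, and the longest spanned 31.5 kb.

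That longest cluster lay between *Bcl2l11*, which encodes the proapoptotic protein BIM, and *Spdye4c*. Its 6 members, at chr2:128364866-128396335, had enrichments of 7.32, 8.13, 7.86, 8.11, 10.8, and 9.76 in replicate 2, and of 10.9, 17.7, 31.3, 23.4, 28.3, and 26.4 in replicate 3. Beyond it, a cluster of 5, at chr2:128406678-128429985, ended on the *Morrbid* start. It had 12.9, 5.42, 5.42, 8.81, and 19.6 in replicate 2 and 59.3, 5.61, 7.16, 16.3, and 43.0 in replicate 3. Replicate 2 placed the member at the *Morrbid* start highest, and replicate 3 the member at the other end of the cluster. All 11 of these members lay in the body of *Morrbid*, and *Bcl2l11* itself had a shared region at a gene end, of 17.7 and 56.6.

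The desert between *Klf14* and *Mkln1* likewise held a cluster of 6 followed by a cluster of 5. The 6, at chr6:31075603-31097684, had 5.39 to 11.5 in replicate 2 and 12.8 to 30.9 in replicate 3. The 5, at chr6:31107987-31123886, had 6.10 to 13.6 and 3.55 to 35.3, and 3 of them had no more than 6.42 in replicate 3. All 5 lay in the body of *Lncpint*, which held 9 of the 16 members of this desert. *Mkln1* had a shared region at a gene end and *Klf14*, a Krüppel-like factor of fat tissue, had none.

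The other clusters of 6 lay between *Pcdh17* and *Diaph3*, a formin, and between *Myc* and *Gsdmc*. The first, at chr14:86431247-86453478, had 6.98 to 14.9 in replicate 2 and 11 to 32.7 in replicate 3. The second, at chr15:62195466-62223140, began 206 kb from *Myc*, lay wholly in the body of the lncRNA *Pvt1*, and had 5.62 to 10.2 and 8.85 to 29.8. No member of the 4 clusters of 6 passed 14.9 in replicate 2 or 32.7 in replicate 3, although clustered members had the higher median enrichment in both libraries.

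Some smaller clusters held stronger members. Between *Dusp10* and *Hlx*, 5 members at chr1:184275333-184290448 had 26.5, 8.33, 8.78, 6.03, and 20.3 in replicate 2 and 72.1, 16.3, 14.6, 9.12, and 49.2 in replicate 3. Both libraries put the outer members of this cluster above the inner ones. The 4 members 181 kb from *Sema6d*, a semaphorin, at chr2:124847767-124859157, had 8.51 to 28.3 and 23.9 to 75.5. The 4 between *Hmga2*, a chromatin protein, and *Msrb3*, at chr10:120616292-120636523, had 10.5 to 28.5 and 19.2 to 57.5. Clusters of 4 also lay beside *Klf7*, with 5.42 to 23 and 3.99 to 39.8, in *Mir100hg*, with 4.65 to 26.4 and 10.9 to 60.2, and between *Eea1* and *Btg1*, with 5.42 to 10.8 and 3.81 to 36.5.

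The share of genes with a shared region at an end was higher beside filled deserts than beside empty ones, a difference that was described and not tested. Across the genome, 9644 of 21887 protein-coding genes (44.1%) had a shared region within 1 kb of a gene end, here called an acetylated end. Among the 652 genes that flanked a member, 329 did (50.5%). Of the 684 flanks of deserts with a member, 349 were acetylated (51.0%, Wilson interval 47.3 to 54.8), against 735 of the 2694 flanks of deserts without a member (27.3%, 25.6 to 29.0). The deserts without a member included all 152 of chromosome Y, and no share without them was computed. The share was 45.3% for deserts with 1 member, 52.4% for those with 2 to 4, and 63.1% (54.3 to 71.2) for those with 5 or more. The share of all genes, 44.1%, thus lay between those beside empty and beside filled deserts. When a shared region needed a reciprocal overlap of 50%, the shares were lower throughout, at 22.4% of all genes, 26.0% of genes that flanked a member, 26.3% of flanks of filled deserts, and 14.1% of flanks of empty ones.

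Seen from the deserts, 78 of 798 with no acetylated flank held a member (9.77%, 7.90 to 12), 179 of 698 with 1 (25.6%, 22.5 to 29.0), and 85 of 193 with both (44.0%, 37.2 to 51.1). Density rose in the same order, from 0.455 to 1.55 and 3.78 members per Mb. The median length was 416 kb, 433 kb, and 388 kb in these groups. The order held in each of the 5 length bins. Among deserts of 300 to 500 kb, for instance, the share with a member was 9.09%, 26.1%, and 49.0%, and among those of 1000 to 2000 kb it was 13.5%, 34.7%, and 59.1%. Neither flank was acetylated for 165 members, 1 flank for 540, and both for 295. The deserts of chromosome Y were counted in these shares too.

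**Figure D4:**
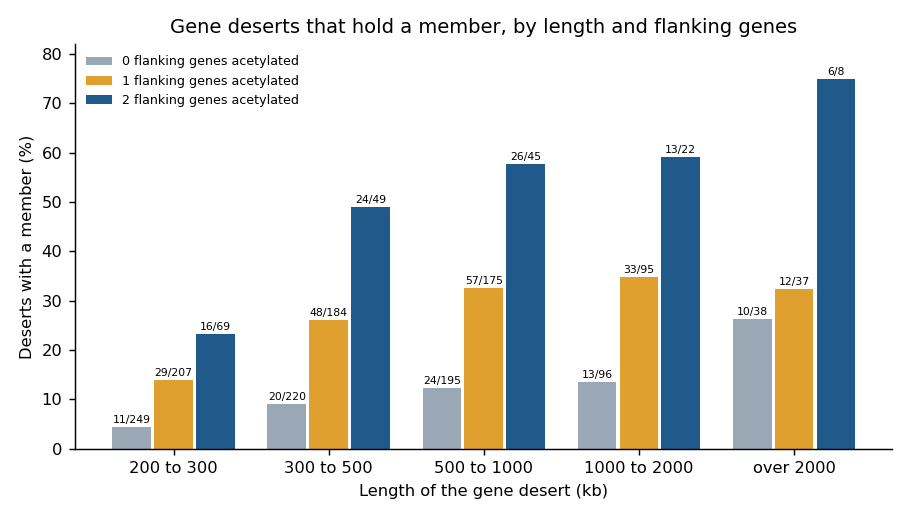
Share of deserts with at least 1 member (y axis, percent) by desert length (x axis, kb) and by the number of flanking genes with a shared region within 1 kb of a gene end (bar colours). Fractions over the bars give deserts with a member over all deserts of that kind. In each length bin the share is lowest with no acetylated flank and highest with both, though the last bin holds only 8 deserts of the latter kind.

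Where a single flank was acetylated, members also lay more often nearer to that side. For 623 of 1000 members (62.3%, 59.3 to 65.3) the nearest gene had an acetylated end. The share was 33.8% under the reciprocal overlap, where all genes had 22.4%. These shares do not show the side, because both flanks were acetylated for 295 members and neither flank for 165. For those members the state of the nearest gene was the same whichever side they lay on. In the 179 deserts with members and a single acetylated flank, 327 of 539 members (60.7%) were nearer to that flank, and by desert 105 had most of their members on that side, 67 on the other, and 7 neither. Clusters within a desert are not independent, so these are counts only. The share with an acetylated nearest gene was 63.3% at 100 to 200 kb, 64.8% at 200 to 500 kb, 50.8% at 500 to 1000 kb, and 12.5% of the 16 members beyond. Orientation was even. Where the strand was known, the 5′ end faced the desert at 52.3% of flanks with a member and 51.5% of flanks without.

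Among flanking genes, 288 flanked 1 member, 126 flanked 5 or more, and 39 flanked 10 or more. *Myc*, the growth regulator, flanked 26, of which 19 lay in the desert on 1 side and 7 on the other. They had enrichments of 5.42 to 35.4 in replicate 2 and 8.85 to 78.1 in replicate 3, and its own end had 16.3 and 44.6. *Mctp2* flanked 22, *Adamts5* and *N6amt1* 21 each, *Gm44812* 20, *Gsdmc* 19, *Adgrl2* 18, *Adgrl4* 17, and *Klf14* and *Mkln1* 16 each, level with *Usp25*. *Mctp2*, *Gm44812*, *Gsdmc*, and *Klf14* had no acetylated end, so a gene can flank many members without a shared region at its annotated ends. A peak inside the gene or in 1 library only does not count as one. The end of *Adamts5* was weakly marked, at 5.11 and 5.62. Genes with 5 to 9 members were acetylated in 65.5% of cases (57 of 87) and those with 10 or more in 59.0% (23 of 39), against 44.1% of genes with 1.

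Gene lists were compared by how many of their genes flanked a member, against 2.98% of all protein-coding genes and 23.2% of the 2811 genes beside a desert. Transcription factors of endothelial cells had higher shares than these. Of 54 such genes 19 flanked a member (35.2%), which was 67.9% of the 28 beside a desert, and 14 of the 19 had an acetylated end (73.7%, against 40 of all 54, or 74.1%). All the lists were drawn up with earlier results of these data known, so their shares and their order are descriptions. The comparison was not matched for acetylated ends or desert length, and a flanking gene counted at any distance.

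*Hlx*, a homeobox transcription factor, shared the 11 members of its desert with *Dusp10*, the nearest 109 kb away, and its own end had 10.5 and 27. *Klf6*, induced by vascular injury, flanked 10 members and was the nearest gene of 8. The strongest of these 8, 269 kb away, had 26.7 and 58.3, and the *Klf6* end had 44.5 and 127. *Tcf4*, a basic helix-loop-helix factor, flanked 10, of which 8 lay nearer to *Mc2r*. The 2 nearer to *Tcf4*, 147 and 225 kb away, had 8.13 and 6.10 in replicate 2 and 23.8 and 10.0 in replicate 3. *Klf4* flanked 9, all nearer to it than to *Actl7b*, up to 35.2 and 88.6, with 31.7 and 82.7 at its end.

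*Ets1*, an ETS factor of blood vessels, flanked 7 members within 243 kb. They had 8.98, 29.8, 21.0, 6.08, 10.8, 6.10, and 7.32 in replicate 2 and 22.2, 74.6, 38.7, 9.74, 27.1, 12.7, and 18.2 in replicate 3, and *Ets1* had no shared region within 1 kb of its annotated ends. *Ets2* flanked 3, up to 21.5 and 93.8. *Sox17*, an arterial factor, flanked 3 members 105 to 125 kb away, with 9.76, 6.71, and 11.5 in replicate 2 and 22.9, 23.4, and 22.7 in replicate 3, so the members that differed in replicate 2 were level in replicate 3.

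*Maf*, a factor that maintains LSEC identity, flanked 2 members, chr8:115536529-115537502 with 23.7 and 30.6 and chr8:115539396-115540365 with 14.9 and 37.4. Its gene end had 13.6 and 31.3, so the distal members were at least as strong in replicate 2. *Nfib* flanked 4, *Nr2f1* and *Zeb2* 3 each, and *Foxo1*, *Gata6*, and *Mef2c* 2 each, while *Foxf1*, *Irf8*, *Meis2*, *Nr2f2*, and *Zeb1* flanked 1 each. Of these, *Zeb2*, *Mef2c*, *Foxf1*, and *Nr2f2*, the venous factor COUP-TFII, had no acetylated end. *Foxp1*, *Hey2*, *Meis1*, *Nfia*, *Prox1*, *Rbpj*, *Tfec*, and *Tshz2* were among those that lay beside deserts without a member.

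Endothelial receptors and signalling genes followed. Of 93, 20 flanked a member (21.5%, and 48.8% of the 41 beside a desert), and 12 of the 20 had an acetylated end (60%, against 59 of all 93, or 63.4%). After *Adgrl4*, the lysophosphatidate phosphatase *Plpp3* flanked 8 members, the arterial ligand *Efnb2* 7, the receptor *Kit* 7, and the chemokine scavenger *Ackr3* 6. The strongest member beside *Efnb2*, 165 kb away, had 19.8 and 88.6, and the ephrin's own end had 20.3 and 48.9.

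*Kdr*, which encodes VEGF receptor 2, shared a desert with *Kit*. The 3 members there had 8.13, 8.13, and 25.8 in replicate 2 and 13.2, 13, and 36.2 in replicate 3, and the strongest, chr5:75825625-75827860, lay 106 kb from *Kdr*. The *Kdr* end had 22.4 and 60.3. *Bmp2*, the BMP ligand by which LSECs control hepatic iron sensing, flanked a member of 29.7 and 49.8, 108 kb away, and a weak one of 6.10 and 3.58 on its other side. The Notch ligand *Jag1* flanked 4 members, *Bmp4* and the endothelin receptor *Ednrb* 3 each, and *Bmper*, *Calcrl*, *Sema3a*, and *Sema6a* 2 each.

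Single members flanked *Cxcr4*, *Edn1*, *Emcn*, *S1pr3*, *Tgfb2*, and *Unc5b*. The member beside *Emcn*, which encodes the sialomucin endomucin, was strong, at 34.6 and 68.7, although no shared region lay at an *Emcn* end. The member beside *Unc5b*, a netrin receptor, had 27.1 and 69.0, spanned 3287 bp, and lay over the lncRNA genes *Pldi* and *Gm26947*. *Cdh5*, *Nrp1*, *Vegfa*, *Vegfc*, *Igfbp7*, and *Tgfbr2* were among the 21 genes of this list that lay only beside deserts without a member.

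Feedback inhibitors of MAP kinase signalling were the list with the highest share, 5 of 11 genes (45.5%). That was 5 of the 6 beside a desert, all 5 with acetylated ends, as had 10 of all 11. This short list too was drawn up with earlier results known, so its rank is a description. *Dusp10*, *Dusp6*, and *Dusp4* encode MAP kinase phosphatases, and *Spry2* and *Spred1* encode inhibitors of receptor signalling to Ras and Raf. *Dusp10* flanked 11 members, *Dusp6* 10, *Spry2* 8, *Dusp4* 6, and *Spred1* 3, which is 38 in all.

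The 10 members between *Dusp6* and *Csl* had 5.42 to 23 in replicate 2 and 3.41 to 41.0 in replicate 3. The 8 between *Ndfip2* and *Spry2* had 6.07, 8.81, 9.58, 8.13, 11.6, 8.13, 42.7, and 11.1 in replicate 2 and 11.4, 18.6, 19.7, 19.7, 31.1, 4.06, 81.7, and 13.6 in replicate 3, so 1 member stood far above the rest in both. The 6 between *Saraf* and *Dusp4*, all alone at 10 kb, had 5.42 to 16.3 and 8.63 to 29.0. Of the 3 beside *Spred1*, that 122 kb away had 25 and 88.6.

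Among the AP-1 genes only 1 of 11, *Jun*, lay beside a desert, and it flanked 5 members with 19.0, 5.42, 9.49, 6.10, and 4.6 in replicate 2 and 47.8, 9.12, 28.3, 4.78, and 10.3 in replicate 3. The strongest was the nearest, 109 kb from *Jun*, whose end had 50.8 and 91.0. 41 of 291 developmental regulators flanked a member (14.1%, and 36.9% of the 111 beside a desert), with *Myc*, *Klf14*, *Klf7*, and *Sox4* (7 members each for the last pair) beside those already named. Those beside deserts without a member included *Pax3*, *Pax6*, *Six2*, *Irx1*, *Irx3*, *Sox2*, *Sox9*, *Hand2*, and *Runx1*. Of 227 neuronal adhesion and guidance genes 27 flanked a member (11.9%, and 27.8% of the 97 beside a desert), close to the share of all desert genes, and 5 of these 27 had an acetylated end (18.5%), against 24 of all 227 (10.6%).

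Of 212 interleukin, chemokine, and interferon genes, 4 flanked a member (1.89%, against 2.98% of all genes), namely *Ackr3*, *Cxcr4*, *Il15*, and *Irf8*. They were 20% of the 20 beside a desert, near the 23.2% of all genes beside a desert. Olfactory, vomeronasal, and taste receptor genes were below both shares of all genes, with 2 of 1512 (0.132%, and 6.90% of 29). Of the cell type markers, the LSEC genes *Kdr*, *Bmp2*, and *Maf* flanked members, as did the stellate gene *Dcn* with 1 member of 8.81 and 16.2 and no acetylated end. No hepatocyte, Kupffer, cholangiocyte, or lymphocyte marker flanked one.

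**Figure D5:**
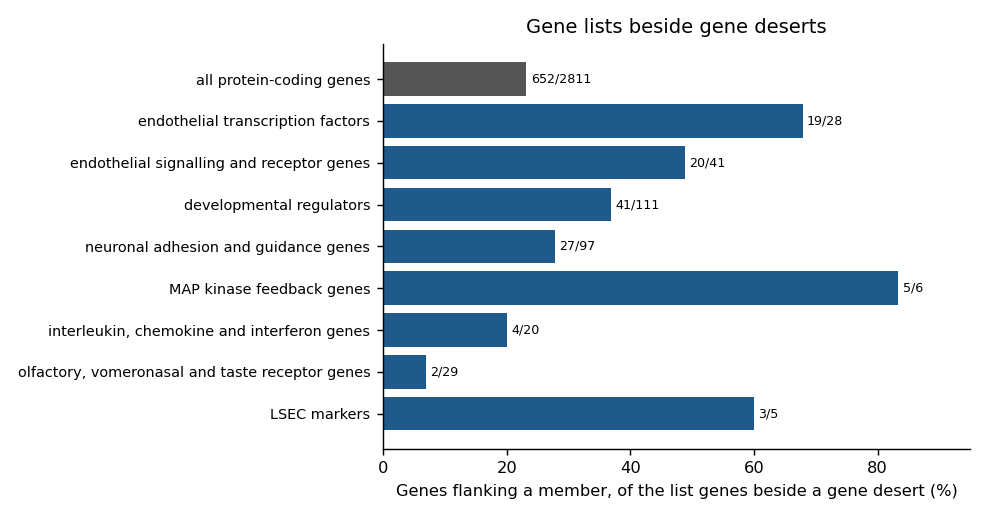
Share of genes that flank a member (x axis, percent) among the genes of each list that lie beside a desert, with counts at the bar ends and all protein-coding genes in dark grey. Lists with fewer than 5 genes beside a desert are not drawn. MAP kinase feedback genes (5 of 6) and endothelial transcription factors (19 of 28) lie highest and chemosensory receptors (2 of 29) lowest, against 652 of 2811 genes in all. The lists were drawn up with earlier results of these data known, so the order is a description.

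Deserts between coding genes are not empty of genes. Of the members, 295 (29.5%) lay in the body of an annotated lncRNA gene, often several in the same gene. The bodies of lncRNA genes took up 9.29% of desert sequence more than 100 kb from a coding gene. The share was 27.7% for the regions of replicate 3 alone in deserts and 22.2% for the shared intergenic regions nearer to a gene. By lncRNA ends the order differed. An end lay within 2.5 kb for 12.4% of members, 10.9% of the regions of replicate 3 alone, and 18.6% of the shared intergenic regions nearer to a gene. *Gm30382*, *Morrbid*, and *Pvt1* held 11 members each, *Lncpint* 9, *Mir100hg* 8, *2610307P16Rik* and *Mir99ahg* 6 each, and *A930011G23Rik* 5. Members in and outside lncRNA bodies had similar enrichments, with medians of 8.81 and 9.15 in replicate 2 and 20.2 and 19.2 in replicate 3. When lncRNA genes were counted as genes in the distance rule, 181 members were left.

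Of the lncRNA starts overlapped by members, the strongest were those of *Gm26901*, with 33.9 and 77.5, *Gm32865* between *Adamts5* and *N6amt1*, with 32.5 and 73.6, and *Gm26947*, with 27.1 and 69.0. *Firre*, a nuclear RNA of chromosome X, had 3 members in its body, and the member at its start had 11.5 and 23.6. Within *Mir99ahg*, the host of miR-99a and let-7c, members had 5.11 to 14.9 and 7.17 to 47.5. In *Pvt1*, beside *Myc*, they had 5.49 to 33.2 and 8.85 to 61.2.

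Other members lay over repeated or unusual annotation and are named here after their values were seen. The widest member, chr17:39842968-39848838, spanned 5871 bp but had only 10.4 and 13.4, and overlapped *Rn18s-rs5*, an 18S ribosomal RNA pseudogene, and the lncRNA *AY036118*. Reads from other copies of ribosomal DNA cannot be told apart there from reads of this locus. The 3 members beside *Trav17* on chromosome 14, at chr14:53802503-53804649, lay among the variable segments of the T cell receptor alpha locus, which the rule does not count as protein-coding genes. They had 13.6, 6.78, and 6.10 in replicate 2 and 44.0, 7.16, and 26.7 in replicate 3. With antigen receptor segments counted as genes, 997 members were left.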

How the data were processed

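Replicates 2 and 3 of mouse LSECs, 1 group, were profiled by H3K27ac ChIP-Seq. The study's methods describe a tagmentation-based protocol, whereas the sample records describe sonication and a ligation kit. The authors deposited a peak list per library, not pooled. The submitters' processing notes name mm10 (GRCm38), cutadapt 0.4.4, BWA 0.7.17, Picard 1.67, MACS2 2.0.10, and bedtools 2.27.1, without roles. The deposited columns hold a fold enrichment (a ratio of signal to background), a −log10 p-value, and a −log10 q-value as the authors' caller gave them, and a score rescaled from the latter. No deposited −log10 q fell below 2.04 (replicate 2) or 2.01 (replicate 3). The lists give no read counts, so depth and its effect on each count are unknown. Whether the calls used the inputs is not given in the sources used here.

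Genes, lncRNAs, promoters, and miRNAs came from RefSeq tables of GRCm38. Peaks overlapping by 1 bp were merged, a region took its highest peak per library, and percentiles were ranks within a list. Members within 10 kb were joined into clusters, and a gene was acetylated when a shared region lay within 1 kb of either end. The code recovered all planted regions in simulated data. Wilson intervals (95%) cover counting error only, and treat regions as independent. The replicates come from 1 group without a control list, and regions are not replicates, so no test was run. The members and gene lists were chosen with earlier results of these data known. Named genes flank the 10 clusters with most regions, the 10 strongest members, or the edges of the 100 kb limit and the 5 longest filled deserts, are among the 10 that flank most members, or belong to a list. Other genes, such as the lncRNAs and miRNAs, were named after their values were seen. Alternatives changed the q-value, peak number, overlap, distance, joining, ranking, window, genes counted, and library. Python 3.11.15, numpy 2.4.6, pandas 2.3.3, and matplotlib 3.10.9 were used.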

Additional observations from a re-analysis of the deposited data

How the results depend on the processing

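Depth is unknown, the libraries differ in peak number, and there is no second group, so the alternatives show how far the counts move and not whether they differ. Of 56 alternatives, 36 moved a value by less than the SD of the 2 single-library values, or a count by less than 1.5 times, and 20 moved it further. The cause was not tested. With either library alone, the number of regions was 1080 to 2727, the share in clusters 44.4% to 58.7%, the median percentile 43.5 to 45.6, the share of acetylated flanking genes 49.1% to 58.7%, the share of deserts with a region 21.1% to 32.9%, and the share with an acetylated nearest gene 60.9% to 71.1%. A reciprocal overlap of 50% gave 598 members, 28.4% in clusters, a median percentile of 64.2 (58.3 in the main analysis), 26.0% of flanking genes, and 33.8% of nearest genes acetylated, with gene ends held to the same overlap (all genes, 22.4%). The number of members was 1853 at more than 50 kb, 430 at more than 200 kb, and 181 with lncRNA genes counted, an alternative chosen after seeing the data, as was counting antigen receptor segments (997). The share in clusters was 30% with regions linked within 5 kb, 67.6% within 50 kb, and 66.6% when peaks of either library could link. The median percentile was 48.5 with equal numbers of peaks and 56.4 at more than 200 kb. No paired analysis was possible because the only group with peak lists has 1 library of each number and no result comes from a test.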

Other observations

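The deserts that were marked in replicate 3 alone can be set beside those with members. Over all 1689 deserts, empty ones included, the number of members and the number of regions of replicate 3 alone had a Spearman rho of 0.666, which is a description because both counts come from the same 2 libraries. The desert between *Myc* and *Gsdmc* held 28 regions of replicate 3 alone beside its 19 members, that between *Bcl2l11* and *Spdye4c* 20 beside 13, and that between *Adgrl2* and *Adgrl4* 20 beside 17. In the fullest desert, between *Adamts5* and *N6amt1*, members outnumbered them, 21 against 12, and between *Eea1* and *Btg1* they did so by 11 against 6.

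The deserts also differed in the typical strength of their members. Over the 126 deserts with 3 or more members, the median enrichments of the libraries had a Spearman rho of 0.716. Among the fullest deserts, the medians were 12.8 and 27 between *Plk2*, a polo-like kinase, and *Actbl2*, and 7.70 and 14.0 between *Zfp608* and *Gramd3*. The 13 members of the first reached 27.8 and 67.0, and the 12 of the second reached 18.3 and 31.1.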
